A study of Mus musculus with 10 samples.

Results

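The comparison described here is that of mouse CD8 T cells given mRNA for a decoy-resistant form of interleukin 18 (DRIL18) with Mock electroporated cells, and its members are all genes with enough counts to be tested in these libraries. The libraries were taken by their labels: 2 of DRIL18 and 2 of Mock, 4 of the 10 libraries of the series, with 15777 tested genes of 55359 counted gene identifiers. All groups are pmel-1 lymphocytes, which carry a transgenic T cell receptor for the melanoma antigen gp100. They came from spleen, were activated for 48 h with the human gp100 antigen, kept for a further 48 h with human IL-2 and, except in the NoEp group, electroporated 24 h before RNA was extracted. The other groups, used here only where named, are NoEp (no electroporation), IL12 (IL-12 mRNA) and mixture (IL-12 and DRIL18 mRNA together), each with 2 libraries. The labels describe the Mock cells as electroporated with mRNA, and the sources used here do not give the identity of that mRNA. The labels call the libraries biological replicates without saying that they came from separate animals or cultures, so the p-values reflect the spread among these libraries alone, which may be technical.

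Interleukin 18 is a cytokine of the IL-1 family. It binds the receptor chain encoded by Il18r1, which then recruits the accessory chain encoded by Il18rap, and the pair signals through the adaptor MyD88, IRAK kinases and TRAF6 to NF-κB and MAP kinases. In T cells and natural killer cells it is known for raising interferon gamma (IFN-γ) production, most of all together with IL-12. A soluble decoy, the IL-18 binding protein, neutralises the natural cytokine, and a decoy-resistant variant is one that this protein does not capture.

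The 4 libraries held between 33010930 and 34713321 counts, and 20798 to 21009 genes had at least 1 count in each. Beyond counting error, replicates varied with a common coefficient of 3.39%. Defining CD8 T cell genes were abundant: the 11 marker genes of this type, such as Cd8a, Cd8b1 and Cd3e, summed to 5707 and 5631 CPM (read counts normalised to TMM-scaled library size) in Mock and to 5173 and 5231 CPM with DRIL18. Of these 11, 8 were lower and 0 higher with DRIL18, beside 12.1% lower and 12.2% higher over all tested genes, and 4 were lower when Mock replicate 1 or DRIL18 replicate 1 was left out. Cd8a (-0.013, adjusted p = 0.841) and Cd8b1 (0.013, adjusted p = 0.857) did not pass. Neutrophil markers were near 0, with a sum of at most 0.354 CPM in these libraries, and macrophage markers summed to between 5.89 and 7.55 CPM without separating the groups. Each gene was tested with edgeR's quasi-likelihood F test on the counts of all 10 libraries. Adjusted p-values are Benjamini-Hochberg values over all tested genes, with a threshold of 0.05. The SE beside a log2 fold change is an approximate standard error, the size of the change divided by the square root of F. For large changes with few counts in a group, it can be smaller than counting error alone.

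DRIL18 mRNA moved many genes by small amounts and few by large ones. At the threshold, 3832 of 15777 genes (24.3%) had changed, 1917 higher (12.2%) and 1915 lower (12.1%), and the median size of their log2 fold changes was 0.265. The directions were balanced for small changes and uneven for large ones: between a log2 fold change of 0 and 0.25 in size, 823 genes rose and 942 fell, while above 2 in size 94 rose and 14 fell. The set of genes past the threshold with separate libraries and a mean of at least 5 CPM in the higher group was narrower. Its largest fall was -1.48 (Aqp9), so the 14 falls lay outside it, and its 12th largest rise was 2.17 (AC132320.1). Changes of at least 2-fold numbered 226 upward and 76 downward. Counts of list members for this comparison, given below, are to be read beside the shares of 12.2% higher and 12.1% lower. Both DRIL18 libraries lay above both Mock libraries in 30.2% of all tested genes and below both in 30.1%. Separation of libraries, where given below for single genes, is to be read beside these shares. The number of calls fell to 2525 without Mock replicate 2.

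**Figure D1:**
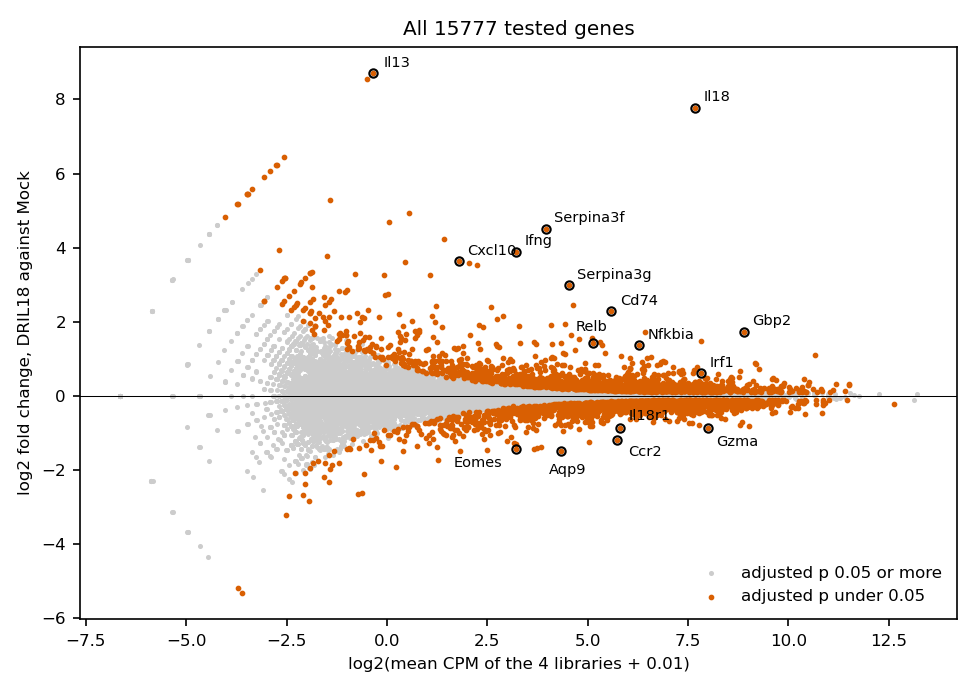
Each point is 1 of the 15777 tested genes. The x axis is the log2 of the mean CPM of the 4 libraries plus 0.01, the y axis the log2 fold change of DRIL18 against Mock, and orange points passed an adjusted p of 0.05. Circled genes are named. Points far above 0 are more numerous than points far below it, with 94 called genes above 2 and 14 below -2. Among called genes with separate libraries and at least 5 CPM on average in the higher group, the largest fall was -1.48 (Aqp9). Rows of points at the left come from genes with few counts.

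The gene of the delivered cytokine had the largest rise among genes reaching a mean of 5 CPM. Reads assigned to Il18 (ENSMUSG00000039217) were at 1.84 and 1.84 CPM in Mock and 412 and 401 CPM with DRIL18 (log2 fold change 7.78 ± 0.08 SE, adjusted p = 2.16e-34). Both DRIL18 libraries thus lay far above both Mock libraries, and NoEp was at 2.32 and 1.73 CPM. These counts cannot separate reads of the delivered mRNA from those of the endogenous gene, so the value checks the labels and does not measure the endogenous gene.

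The 11 genes that followed it covered serpins, cytokine genes and enzymes. Serpina3f, a serine protease inhibitor of the antichymotrypsin family, was at 1.22 and 1.37 CPM in Mock and 29.2 and 30.2 CPM with DRIL18 (log2 fold change 4.52 ± 0.14 SE, adjusted p = 3.27e-21). Its neighbour in the same family, Serpina3g, was at 5.09 and 5.27 CPM in Mock and 41.7 and 40.5 CPM with DRIL18 (log2 fold change 2.99 ± 0.096 SE, adjusted p = 8.44e-21). In both genes every DRIL18 library lay above every Mock library, and since members of the Serpina3 cluster are similar in sequence, reads may be split between them. Upp1, which encodes uridine phosphorylase, an enzyme of pyrimidine salvage, was at 0.0849 and 0.446 CPM in Mock and 4.27 and 5.81 CPM with DRIL18 (log2 fold change 4.25 ± 0.33 SE, adjusted p = 1.48e-11). Sema6d, a transmembrane semaphorin, was at 0.679 and 0.833 CPM in Mock and 7.99 and 9.49 CPM with DRIL18 (log2 fold change 3.53 ± 0.17 SE, adjusted p = 1.34e-16). The groups did not overlap in either gene. Separate libraries were a condition for naming Il18 and these 11 genes. Asb2, the substrate receptor of a ubiquitin ligase, was at 8.60 and 6.66 CPM in Mock and 41.3 and 42.4 CPM with DRIL18 (log2 fold change 2.45 ± 0.079 SE, adjusted p = 8.58e-21), and Myl4, a myosin light chain gene, rose with 2.39, adjusted p = 4.02e-13. The genes with clone-based names AC151990.1 (3.60, adjusted p = 4.47e-12) and AC132320.1 (2.17, adjusted p = 2.32e-11) rose as well, and Ifng, Cxcl10 and Cd74 are described below with their groups.

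Falls were smaller in size. Aqp9, a water and glycerol channel, was at 29.3 and 30.1 CPM in Mock and 10.5 and 10.8 CPM with DRIL18 (log2 fold change -1.48 ± 0.083 SE, adjusted p = 9.49e-15). Eomes, a T-box factor of effector and memory CD8 T cells, was at 13.7 and 13.2 CPM in Mock and 4.44 and 5.63 CPM with DRIL18 (log2 fold change -1.42 ± 0.14 SE, adjusted p = 1.54e-09). Sgk1, a kinase acting downstream of PI3K, was at 19.6 and 19.1 CPM in Mock and 6.92 and 7.63 CPM with DRIL18 (log2 fold change -1.41 ± 0.096 SE, adjusted p = 8.2e-13). Each of these genes was lower in both DRIL18 libraries than in either Mock library. Lgals3, which encodes galectin 3, went from 44.6 and 47.5 CPM to 18.5 and 20.2 CPM (-1.25, adjusted p = 2.98e-15), and Ccr2, the receptor for the chemokine CCL2, from 71.8 and 76.5 CPM to 32.5 and 33.0 CPM (-1.18, adjusted p = 5.39e-16). The remaining members of the 12 that fell most were Prag1 (-1.48), Mycn (-1.46), Drc1 (-1.43), the sialyltransferase gene St3gal6 (-1.39), C030034L19Rik (-1.29), Lrrc32 (-1.27), which encodes the TGF-β docking receptor GARP, and Fhl2 (-1.22). Both DRIL18 libraries lay below both Mock libraries in all 12, which the rule for naming them required. In RNA from whole cultures, fewer cells of one kind and less RNA per cell cannot be told apart.

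**Figure D2:**
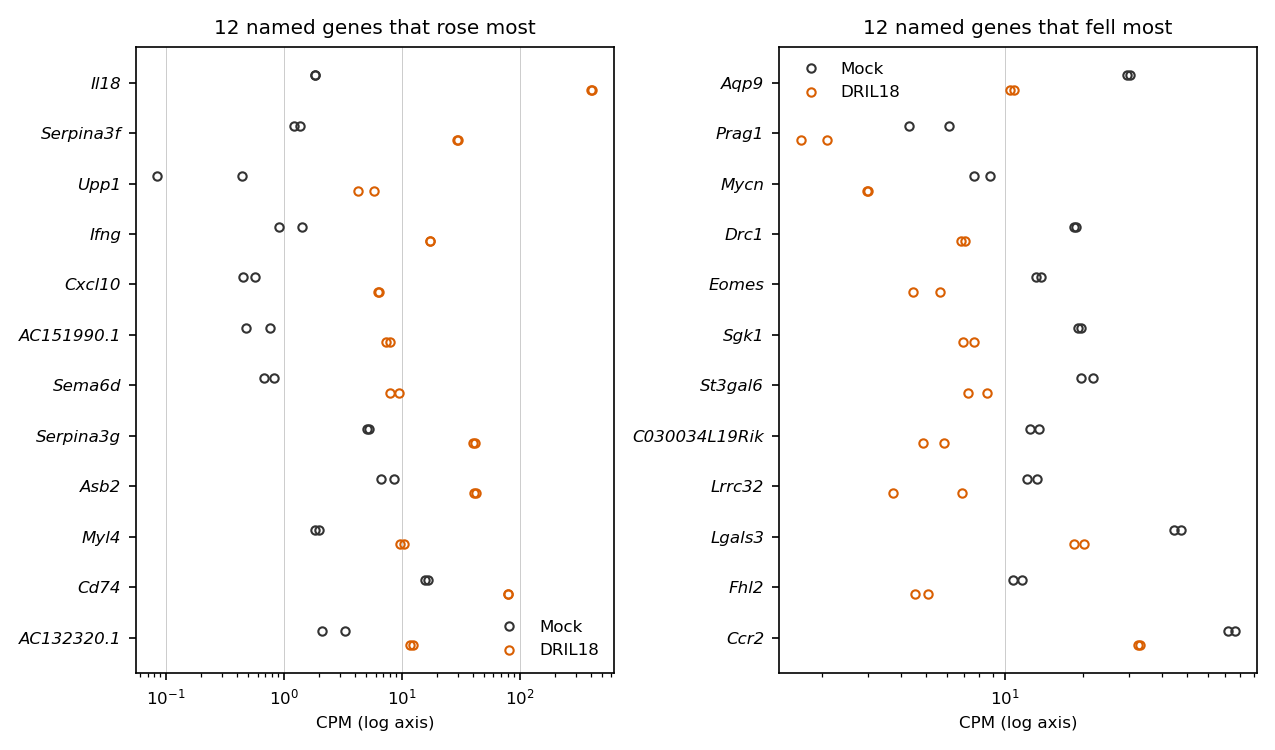
Circles give the CPM of each library on a log axis, dark grey for the 2 Mock libraries and orange for the 2 DRIL18 libraries, for the 12 genes that rose most (left) and the 12 that fell most (right) among called genes whose higher group averaged 5 CPM or more. No gene has overlapping groups, which the rule required. Replicates differ most for Upp1 in Mock (0.0849 and 0.446 CPM) and for Lrrc32 with DRIL18 (3.72 and 6.84 CPM).

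The receptor chain and its adaptors were examined next. Il18r1 (ENSMUSG00000026070), the ligand-binding chain, was at 73.6 and 72.0 CPM in Mock and 39.0 and 40.7 CPM with DRIL18 (log2 fold change -0.87 ± 0.05 SE, adjusted p = 2.25e-14). Il18rap (ENSMUSG00000026068), the signalling chain, was at 80.8 and 79.5 CPM in Mock and 54.3 and 49.3 CPM with DRIL18 (log2 fold change -0.63 ± 0.054 SE, adjusted p = 1.57e-10). Both chains were therefore lower in each DRIL18 library than in each Mock library. Il18bp, the gene of the soluble decoy, rose from 6.62 and 6.13 CPM to 10.1 and 10.5 CPM (log2 fold change 0.69 ± 0.12 SE, adjusted p = 4.11e-05). Irak3, which encodes an IRAK family member that restrains this signalling, rose from 1.70 and 1.93 CPM to 4.50 and 4.48 CPM (log2 fold change 1.31 ± 0.18 SE, adjusted p = 1.56e-06). Of the 23 tested genes on the list of IL-18 and IL-1 family receptors and the MyD88 chain, 3 rose (13%, beside 12.2% over all tested genes) and 6 fell (26.1%, beside 12.1%), with a median log2 fold change of -0.11 against 0.0043 over all tested genes. Among the 6 were Traf6 (-0.25), the ubiquitin ligase of the pathway, and its regulators Peli1 (-0.16) and Tollip (-0.19). Without Mock replicate 2, or without DRIL18 replicate 2, 3 genes of the list pass downward. The adaptor gene Myd88 (-0.12, adjusted p = 0.0786) and the kinase genes Irak4 (-0.11, adjusted p = 0.217) and Irak2 (-0.11, adjusted p = 0.405) did not pass, although Myd88 did with the mark bis of the column names as a covariate (-0.17, adjusted p = 0.0338) and Irak2 with NoEp as the control (-0.28, adjusted p = 0.0141).

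More genes of the NF-κB family rose than fell. NF-κB dimers wait in the cytoplasm bound to inhibitors of the IκB family, and several of these inhibitors are themselves targets of NF-κB. Of 30 tested genes for subunits, inhibitors and kinases, 19 rose and 2 fell, with a median of 0.26. Relb, a subunit of the non-canonical pathway, averaged 18.9 ± 1.28 CPM in Mock (SD, n = 2) and was at 52.5 and 49.1 CPM with DRIL18 (log2 fold change 1.43 ± 0.069 SE, adjusted p = 2.71e-16). Its partner Nfkb2 was at 79.1 and 79.5 CPM in Mock and 146 and 152 CPM with DRIL18 (log2 fold change 0.91 ± 0.042 SE, adjusted p = 7.23e-17). Groups did not overlap in either gene. Nfkbia, which encodes the inhibitor IκBα, was at 44.5 and 43.0 CPM in Mock and 110.4 and 116 CPM with DRIL18 (log2 fold change 1.37 ± 0.052 SE, adjusted p = 7.34e-19). The RNase gene Zc3h12a, whose product Regnase-1 degrades cytokine mRNAs, was at 24.3 and 21.6 CPM in Mock and 58.6 and 60.2 CPM with DRIL18 (log2 fold change 1.37 ± 0.06 SE, adjusted p = 2.69e-17), and Tnfaip3, encoding the deubiquitinase A20, at 32.2 and 30.0 CPM in Mock and 47.1 and 46.2 CPM with DRIL18 (log2 fold change 0.59 ± 0.06 SE, adjusted p = 6.45e-09). DRIL18 was higher in every library of these 3 inhibitors. By contrast, the canonical subunits did not pass: Nfkb1 (0.03, adjusted p = 0.596), Rela (0.023, adjusted p = 0.75) and Rel (-0.021, adjusted p = 0.861), the last of which changed sign with the mark bis as a covariate or without Mock replicate 2. The 2 genes that fell were Ikbkb (-0.20), the catalytic IKK subunit, and the atypical inhibitor Nfkbid (-0.22).

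Known targets of NF-κB outside the family followed: 24 of 43 rose and 3 fell, with a median of 0.34. The chemokine gene Cxcl10, an attractant of CXCR3-bearing T cells that interferons also induce, was at 0.453 and 0.565 CPM in Mock and 6.32 and 6.45 CPM with DRIL18 (log2 fold change 3.64 ± 0.24 SE, adjusted p = 3.95e-13). Csf2, the gene of GM-CSF, was at 0.0849 and 0.387 CPM in Mock and 1.13 and 1.24 CPM with DRIL18 (log2 fold change 2.33 ± 0.36 SE, adjusted p = 1.11e-05). The T cell costimulator gene Tnfrsf9, which encodes 4-1BB, was at 36.4 and 37.7 CPM in Mock and 76.3 and 79.0 CPM with DRIL18 (log2 fold change 1.07 ± 0.063 SE, adjusted p = 3.25e-14). Each was higher in both DRIL18 libraries than in both Mock libraries, with Csf2 resting on 3 and 13 counts in Mock and 39 and 42 with DRIL18. Tnf, another classical target, was at 30.0 and 27.7 CPM in Mock and 26.5 and 26.2 CPM with DRIL18 and did not pass (-0.13, adjusted p = 0.197). Those that fell were Rasgrp1 (-0.47), an activator of Ras in T cell receptor signalling, Ier3 (-1.05) and Vim (-0.23).

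Promoters of 5 genes are shown to let the sequence be read beside the values. They are those with the largest log2 fold changes among the 12 named genes of the NF-κB and IFN-γ lists whose window holds a motif of these pathways. The windows are the 250 bases before the annotated start, read 5′ to 3′ on the gene's strand, from RefSeq on GRCm38.p6, a build other than the mm39 that the submitters' processing notes name. Searched on both strands were the NF-κB consensus, the gamma-activated site TTCNNNGAA (GAS) and the interferon-stimulated response element (ISRE), as a pair of GAAA separated by any 2 bases. Capitals mark every match, and overlapping matches share 1 run of capitals.
Ifng, chr10:118440796-118441045 (+ strand): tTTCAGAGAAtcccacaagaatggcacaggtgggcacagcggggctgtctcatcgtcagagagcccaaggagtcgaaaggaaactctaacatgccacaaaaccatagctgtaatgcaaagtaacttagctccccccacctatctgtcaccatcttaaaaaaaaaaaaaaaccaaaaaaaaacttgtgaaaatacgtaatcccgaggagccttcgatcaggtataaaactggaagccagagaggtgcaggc
Cxcl10, chr5:92348890-92349139 (- strand): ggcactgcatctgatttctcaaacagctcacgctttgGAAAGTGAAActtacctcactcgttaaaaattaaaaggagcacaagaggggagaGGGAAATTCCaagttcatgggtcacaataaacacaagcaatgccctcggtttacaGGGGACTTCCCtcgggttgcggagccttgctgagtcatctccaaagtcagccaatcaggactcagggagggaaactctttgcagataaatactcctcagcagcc
Gbp2, chr3:142620413-142620662 (+ strand): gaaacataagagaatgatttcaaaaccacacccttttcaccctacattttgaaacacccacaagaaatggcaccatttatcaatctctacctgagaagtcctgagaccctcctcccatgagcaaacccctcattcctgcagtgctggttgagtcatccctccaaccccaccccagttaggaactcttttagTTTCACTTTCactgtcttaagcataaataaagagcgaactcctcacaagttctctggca
Nfkbia, chr12:55492648-55492897 (- strand): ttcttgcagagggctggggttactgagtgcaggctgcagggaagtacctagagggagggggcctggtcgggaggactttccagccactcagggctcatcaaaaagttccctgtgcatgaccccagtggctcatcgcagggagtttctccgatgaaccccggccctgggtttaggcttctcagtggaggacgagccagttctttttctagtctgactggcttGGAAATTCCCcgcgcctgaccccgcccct
Tnfrsf9, chr4:150927749-150927998 (+ strand): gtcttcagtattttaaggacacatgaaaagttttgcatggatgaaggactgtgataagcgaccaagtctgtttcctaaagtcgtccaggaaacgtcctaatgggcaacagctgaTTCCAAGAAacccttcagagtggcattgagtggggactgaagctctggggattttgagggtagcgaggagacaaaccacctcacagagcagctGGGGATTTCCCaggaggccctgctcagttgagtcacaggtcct
The Ifng window holds a GAS match from 249 to 241 bases before the start. Cxcl10 holds an ISRE from 213 to 204 bases before it, an NF-κB match from 159 to 150 and 2 overlapping NF-κB matches between 104 and 94. In Gbp2 an ISRE on the opposite strand lies from 59 to 50 bases before the start, and in Nfkbia an NF-κB match from 29 to 20. Tnfrsf9 has 2 windows in the table, of which the one shown holds a GAS from 136 to 128 and 2 overlapping NF-κB matches between 43 and 33. Over all 32851 windows of that length in the table, 7.25% hold the NF-κB consensus, 7.02% the GAS and 2.98% the ISRE. Of the NF-κB family list, 26 of 30 genes matched the table, and 12 of their 35 windows (34.3%) hold the NF-κB consensus. For the NF-κB targets, 35 of 43 genes matched, and 11 of 41 windows (26.8%) hold it. The share was higher still on the list of MHC class I chains and peptide loading described below. There 20 of 24 genes matched, and 10 of 22 windows (45.5%) hold it, so a high share was not particular to the NF-κB lists. Shares over all called genes were void because fewer than 80% of them matched the table (74.7% of those that rose, 77.2% of those that fell). A match is a description of letters, not a binding site.

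More MAP kinase and AP-1 genes fell than rose. Of 42 tested, 8 rose and 15 fell, with a median of -0.18. Those that rose included the stress-induced factor Atf3, at 2.35 and 2.77 CPM in Mock and 10.2 and 11.4 CPM with DRIL18 (log2 fold change 2.08 ± 0.16 SE, adjusted p = 1.23e-11). Batf3 rose too, at 9.14 and 8.69 CPM in Mock and 34.7 and 34.1 CPM with DRIL18 (log2 fold change 1.95 ± 0.08 SE, adjusted p = 6.85e-18). Gadd45b, an activator of p38 signalling in T cells, was at 7.67 and 8.86 CPM in Mock (1.08, adjusted p = 1.65e-10), the receptor-response gene Nr4a1 had 1.00, adjusted p = 3.87e-05, and Batf 0.42, adjusted p = 7.7e-06. All were above Mock in both DRIL18 libraries. Among those that fell were the AP-1 subunit genes Fosl2 (-0.88), Jun (-0.38) and Jund (-0.36), the ERK1 gene Mapk3 (-0.42), the p38α gene Mapk14 (-0.29), the ERK phosphatase Dusp6 (-0.47) and the Ras pathway inhibitor Spry1 (-0.73).

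Ifng, which encodes IFN-γ, rose with DRIL18, as did 5 other genes of its axis. Ifng (ENSMUSG00000055170) was at 0.906 and 1.43 CPM in Mock and 17.5 and 17.2 CPM with DRIL18 (log2 fold change 3.90 ± 0.12 SE, adjusted p = 1.47e-21), which are 32 and 48 counts in Mock and 605 and 584 with DRIL18. Irf1, a transcription factor that interferon gamma induces, was at 177 and 179 CPM in Mock and 276 and 272 CPM with DRIL18 (log2 fold change 0.62 ± 0.039 SE, adjusted p = 1.27e-13). Libraries of the groups did not overlap in either gene. Irf8 rose from 46.9 and 49.6 CPM to 90.8 and 87.8 CPM (0.89, adjusted p = 4.28e-15), Ciita, the master activator of MHC class II genes, from 1.02 and 1.22 CPM to 4.33 and 3.74 CPM (1.85, adjusted p = 6.73e-07), and the feedback inhibitor Socs1 from 63.9 and 70.1 CPM to 82.9 and 84.6 CPM (0.32, adjusted p = 1.58e-05). In all, 6 of the 10 tested genes of this axis rose and 1 fell. The one that fell was the receptor chain Ifngr1 (-0.13, adjusted p = 0.0112), whose call is lost without Mock replicate 2 (-0.11, adjusted p = 0.155) or DRIL18 replicate 1 (-0.096, adjusted p = 0.189). The other chain, Ifngr2, did not pass (-0.10, adjusted p = 0.527), except with NoEp as the control (-0.26, adjusted p = 0.0388).

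Guanylate-binding proteins and immunity-related GTPases, which interferon gamma induces in cells to restrict intracellular pathogens, rose without exception among those tested: 19 of 19 genes passed upward, with a median of 0.86. Without DRIL18 replicate 1, 18 pass. Gbp2 was at 218 and 219.7 CPM in Mock and 717 and 746 CPM with DRIL18 (log2 fold change 1.74 ± 0.037 SE, adjusted p = 2.76e-25). Iigp1 was at 118 and 119 CPM in Mock and 336 and 328 CPM with DRIL18 (log2 fold change 1.49 ± 0.04 SE, adjusted p = 9.19e-23). Gbp10, at 13.9 and 14.4 CPM in Mock and 42.4 and 40.0 CPM with DRIL18, had 1.54, adjusted p = 3.51e-15, and Gbp11, at 10.7 and 11.8 CPM in Mock and 24.3 and 22.7 CPM with DRIL18, had 1.06, adjusted p = 1.15e-10. In each of the 19 genes both DRIL18 libraries exceeded both Mock libraries, as in 30.2% of all tested genes, and the smallest rise was that of Gvin1 (0.20). Many of these genes are near-identical copies of each other (Tgtp1 and Tgtp2, the Gbp clusters), so how reads were shared among copies is uncertain.

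Antigen presentation genes rose in both classes. For MHC class I chains and peptide loading, 18 of 24 rose and 0 fell, with a median of 0.24. Tapbpl, a peptide editor, was at 131 and 124 CPM in Mock and 196 and 192 CPM with DRIL18 (log2 fold change 0.60 ± 0.042 SE, adjusted p = 1.84e-12), and the proteasome genes Psme2 (0.49), Psmb10 (0.43) and Psme1 (0.40) rose as well. The heavy chain genes H2-K1 (0.053, adjusted p = 0.269) and H2-D1 (-0.04, adjusted p = 0.43) did not pass, and reads of these polymorphic genes can be shared with similar members. For MHC class II, 9 of 12 rose and 0 fell, with a median of 0.96. Cd74, the invariant chain, was at 16.6 and 15.9 CPM in Mock and 79.9 and 80.3 CPM with DRIL18 (log2 fold change 2.30 ± 0.063 SE, adjusted p = 1.65e-22). H2-Aa, an MHC class II chain, was at 6.99 and 6.49 CPM in Mock and 20.6 and 16.7 CPM with DRIL18 (log2 fold change 1.47 ± 0.11 SE, adjusted p = 8.19e-12), and H2-Eb1 at 5.69 and 4.97 CPM in Mock and 14.7 and 14.1 CPM with DRIL18 (log2 fold change 1.43 ± 0.12 SE, adjusted p = 1.97e-10). Both DRIL18 libraries were above both Mock libraries in these 3 genes, as in 30.2% of all tested genes.

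Mouse T cells carry little MHC class II, so markers of antigen-presenting cells were read beside it. B cell markers summed to 700.5 and 703.0 CPM in Mock and 926 and 977 CPM with DRIL18, with 3 of 14 higher and 0 lower and a median of 0.23. With NoEp as the control 2 were higher and 1 lower, and the median turned to -0.13. Without DRIL18 replicate 2 it was 0.15. Most of that sum was Ighm, at 657 and 659.7 CPM in Mock and 875 and 921 CPM with DRIL18 (0.45, adjusted p = 1.1e-10). Ighd (0.58, adjusted p = 5.14e-05) and Ms4a1 (0.58, adjusted p = 0.0412) were the others that passed, Ms4a1 losing its call in 5 of 19 alternatives, among them without Mock replicate 1 (0.36, adjusted p = 0.381) and without DRIL18 replicate 1 (0.38, adjusted p = 0.357). Cd79a (0.16, adjusted p = 0.524) and Cd79b (0.14, adjusted p = 0.47) did not pass. Dendritic cell markers outside MHC class II summed to 121 and 124 CPM in Mock and 209.7 and 210.5 CPM with DRIL18. Of 8 tested, 3 rose (Batf3, Irf8 and Bst2) and 2 fell (Xcr1 at -0.75 and Itgax at -1.11), while the defining genes Clec9a, Cd209a and Siglech had 0 counts in all 4 libraries. The part of these cells in the class II values was not tested.

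Antiviral interferon-stimulated genes rose in part. Of 55 tested, 29 rose and 3 fell, with a median of 0.23, but with NoEp in place of Mock as the control 18 rose and 9 fell. Ifi211, of the Ifi200 DNA sensor family, was at 0.113 and 0.0595 CPM in Mock and 2.54 and 3.07 CPM with DRIL18 (log2 fold change 4.95 ± 0.35 SE, adjusted p = 3.06e-12). Ly6a, which encodes Sca-1, was at 466 and 471 CPM in Mock and 798 and 756 CPM with DRIL18 (log2 fold change 0.73 ± 0.037 SE, adjusted p = 8.69e-16). Isg15, a ubiquitin-like modifier, was at 3.11 and 2.71 CPM in Mock and 4.53 and 4.83 CPM with DRIL18 (0.68, adjusted p = 0.00348), and it missed the threshold when Mock replicate 2 was left out (0.59, adjusted p = 0.0622) or against NoEp (0.26, adjusted p = 0.248). Ifi44 had 3 counts over both Mock libraries and 29 over both DRIL18 libraries, a ratio of 9.72 with a 95% counting interval of 3.01 to 49.8. Members of the Ifi200 family moved in both directions, with falls of Ifi208 (-0.54), Ifi206 (-0.24) and Ifi209 (-0.10), and they too are similar in sequence. Ifit3 (-0.059, adjusted p = 0.897), Irf7 (0.12, adjusted p = 0.252) and Rsad2 (0.17, adjusted p = 0.765), typical responders to type I interferon, did not pass.

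**Figure D3:**
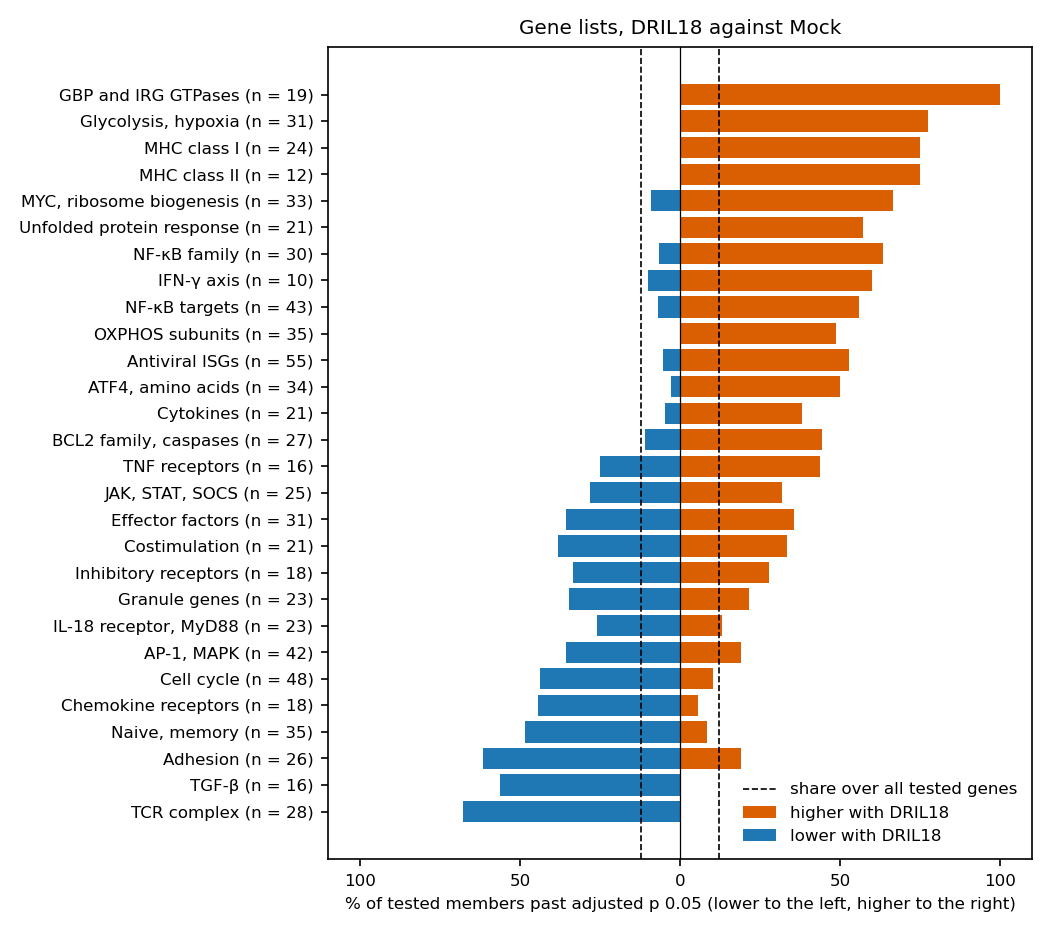
Bars give, for each gene list, the share of its tested members (number in brackets) that passed an adjusted p of 0.05 upward (orange, to the right) or downward (blue, to the left) with DRIL18 against Mock. Dashed lines mark the shares over all tested genes, 12.2% higher and 12.1% lower. The GBP and IRG genes all rose (19 of 19), and the T cell receptor list reaches 67.9% downward (19 of 28).

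Cytokine genes beyond Ifng changed in part. Of 21 tested, 8 rose and 1 fell, with a median of 0.36 that was 0.15 without DRIL18 replicate 2 and 0.54 without DRIL18 replicate 1. Il13, a type 2 cytokine, had 0 counts in both Mock libraries and 58 and 49 counts with DRIL18, which is at least 35.9-fold higher with 3 counts over both Mock libraries as the floor. Il24, an IL-10 family cytokine, was at 0.962 and 0.863 CPM in Mock and 2.08 and 5.31 CPM with DRIL18 (2.01, adjusted p = 1.41e-05), with DRIL18 libraries that differed by more than 2-fold. Lif (1.41, adjusted p = 2.34e-11), Il10 (0.87, adjusted p = 0.00591) and the lymphotoxin gene Ltb (0.51, adjusted p = 6.37e-11) rose at lower fold, and Flt3l fell (-0.43, adjusted p = 1.87e-07). Among chemokines 4 of 11 rose and 0 fell, namely Cxcl10, Ccl3 (1.52, adjusted p = 0.000628), Ccl1 (1.31, adjusted p = 0.0106) and Ccl5 (0.32, adjusted p = 0.0155). Only Cxcl10 and Ccl3 pass without Mock replicate 2 or without DRIL18 replicate 1. Ccl5, at 18.8 and 18.2 CPM in Mock and 22.6 and 23.5 CPM with DRIL18 and at 28.1 and 28.3 CPM in NoEp, was lower with DRIL18 than in NoEp (-0.29, adjusted p = 0.0147).

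Genes of TNF family receptors and ligands moved in both directions. Of 16 receptor genes 7 rose and 4 fell. Tnfrsf8, which encodes CD30, was at 20.6 and 21.8 CPM in Mock and 57.6 and 58.7 CPM with DRIL18 (log2 fold change 1.46 ± 0.061 SE, adjusted p = 7.35e-18), Tnfrsf25, the receptor for TL1A, at 3.09 and 2.89 CPM with DRIL18 (1.09, adjusted p = 2.91e-05), and Tnfrsf4, which encodes OX40, at 7.67 and 8.69 CPM in Mock and 13.1 and 12.97 CPM with DRIL18 (0.67, adjusted p = 7.2e-07). DRIL18 libraries were the higher ones in all 3. Of 13 ligand genes 3 rose and 4 fell. Tnfsf4, the OX40 ligand gene, was at 3.62 and 3.93 CPM in Mock and 9.58 and 9.55 CPM with DRIL18 (log2 fold change 1.34 ± 0.12 SE, adjusted p = 3.15e-10). The death ligand genes Fasl, at 30.7 and 29.6 CPM in Mock and 18.2 and 16.3 CPM with DRIL18 (log2 fold change -0.81 ± 0.069 SE, adjusted p = 1.7e-10), and Tnfsf10, which encodes TRAIL (-0.53, adjusted p = 6.4e-08), fell. Leaving out any 1 of the 4 libraries gives 2 falls among the ligands.

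In the CD28, B7 and SLAM list, 7 of 21 rose and 8 fell, and 5 fell when Mock replicate 2 was left out. Cd274, the PD-L1 gene, was at 20.2 and 22.6 CPM in Mock and 42.1 and 37.6 CPM with DRIL18 (log2 fold change 0.90 ± 0.069 SE, adjusted p = 1.78e-11). Pdcd1lg2, the PD-L2 gene, was at 3.23 and 2.68 CPM in Mock and 7.36 and 6.78 CPM with DRIL18 (log2 fold change 1.26 ± 0.14 SE, adjusted p = 5.48e-08), and Cd86 at 4.61 and 4.37 CPM in Mock and 7.76 and 7.84 CPM with DRIL18 (0.79, adjusted p = 2.21e-05). These 3 ligands were higher in each DRIL18 library than in each Mock library. Cd28 (-0.19, adjusted p = 0.000203) and the adhesion receptor gene Cd2 (-0.27, adjusted p = 4.21e-06) fell. Of 18 inhibitory receptor and exhaustion genes 5 rose, such as Ctla4 (0.25) and Havcr2 (0.35), and 6 fell. The falls included Nt5e, which encodes the adenosine-producing enzyme CD73, at 17.6 and 16.6 CPM in Mock and 8.80 and 9.43 CPM with DRIL18 (-0.91, adjusted p = 1.09e-08), Cd244a (-0.92, adjusted p = 4.05e-05), Cd160 (-0.51, adjusted p = 2.86e-07) and the exhaustion factor Tox (-0.51, adjusted p = 3.57e-05). Pdcd1 (-0.079, adjusted p = 0.6) and Lag3 (0.073, adjusted p = 0.344) did not pass.

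Cytokine receptors changed by small steps. Both IL-12 receptor genes rose, Il12rb2 from 92.5 and 85.8 CPM to 119 and 119.8 CPM (0.42, adjusted p = 1.22e-08) and Il12rb1 from 143 and 146 CPM to 182 and 177 CPM (0.31, adjusted p = 1.44e-07). Il2ra, the high-affinity IL-2 receptor chain, was at 479 and 477 CPM in Mock and 606 and 655 CPM with DRIL18 (0.40, adjusted p = 3.34e-09). The receptor list had 6 of 17 higher and 7 lower, the largest fall being that of Il6ra (-0.83, adjusted p = 0.000819). Of the JAK, STAT and SOCS genes 8 of 25 rose and 7 fell, and 5 rose when Mock replicate 1 was left out. Stat3 (0.35) was among those that rose, and Socs3 (-0.44, adjusted p = 1.83e-07), Cish (-0.39, adjusted p = 4.48e-08), an inhibitor induced by IL-2 through STAT5, and Pias3 (-0.44, adjusted p = 3.58e-06) fell. Genes known to answer to IL-2, PI3K or glucocorticoids had 3 of 20 higher and 9 lower, among them Tsc22d3, encoding the glucocorticoid-induced protein GILZ, at 37.2 and 36.7 CPM in Mock and 26.2 and 24.8 CPM with DRIL18 (-0.53, adjusted p = 1.91e-07).

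Genes of adhesion, homing and quiescence fell more often than they rose. Of 26 integrin and adhesion genes 16 fell and 5 rose, with a median of -0.16. Itga1, the α1 collagen-binding integrin of resident T cells, was at 3.79 and 3.57 CPM in Mock and 0.952 and 1.27 CPM with DRIL18 (log2 fold change -1.73 ± 0.25 SE, adjusted p = 3.55e-06), and Cdh1, which encodes E-cadherin, at 6.91 and 7.85 CPM in Mock and 3.75 and 2.89 CPM with DRIL18 (log2 fold change -1.15 ± 0.18 SE, adjusted p = 1.28e-05). Both lay below Mock in each DRIL18 library. Itgb5 (1.55, adjusted p = 4.43e-05), Itgb1 (0.48) and Icam1 (0.52) were among the 5 that rose. Chemokine and egress receptors had 8 of 18 lower and 1 higher. S1pr1, which guides exit from lymph nodes, was at 152 and 144 CPM in Mock and 93.3 and 99.6 CPM with DRIL18 (log2 fold change -0.62 ± 0.045 SE, adjusted p = 3.78e-12), below Mock in both DRIL18 libraries. The one that rose, Ccr6 (1.28, adjusted p = 0.0147), lost its call without either Mock library or without DRIL18 replicate 1. Naive and memory genes had 17 of 35 lower and 3 higher, with 29 lower and 2 higher against NoEp. Klf2, a quiescence factor that drives S1pr1, was at 86.8 and 91.7 CPM in Mock and 57.2 and 58.7 CPM with DRIL18 (log2 fold change -0.62 ± 0.054 SE, adjusted p = 1.75e-10). Tcf7, the TCF-1 gene, had -0.13, adjusted p = 0.00564, and its call is lost without Mock replicate 1 or DRIL18 replicate 1. Il7r, the IL-7 receptor chain of naive and memory cells, did not pass (0.041, adjusted p = 0.49).

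More genes of the TGF-β and T cell receptor lists fell than rose. Of 16 TGF-β pathway genes 9 fell and 0 rose, with a median of -0.16, although 1 or 2 passed upward in 8 of 19 alternatives. Those that fell included the receptor Tgfbr1 at 53.2 and 52.5 CPM in Mock and 35.9 and 35.2 CPM with DRIL18 (log2 fold change -0.57 ± 0.06 SE, adjusted p = 9.29e-09) and the inhibitor Smad7 (-0.37, adjusted p = 2.13e-05). Of 28 genes of the T cell receptor complex and its proximal signalling 19 fell and 0 rose, with a median of -0.16 and 11 falls without DRIL18 replicate 1. Rasgrp1 was at 361 and 369 CPM in Mock and 260.5 and 266 CPM with DRIL18 (log2 fold change -0.47 ± 0.035 SE, adjusted p = 8.01e-12), and the NFAT genes Nfatc2 (-0.36, adjusted p = 7.8e-08) and Nfatc1 (-0.31, adjusted p = 9.28e-08) fell too. Groups did not overlap in these 3 genes, and apart from Rasgrp1 each called fall on this list was less than 0.4 in log2 size.

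Transcription factors and granule genes of effector cells moved in both directions. Effector factors had 11 of 31 higher and 11 lower, and 7 rose when Mock replicate 1 or either DRIL18 library was left out. Bhlhe40, a factor needed for cytokine production in T cells, was at 85.5 and 85.4 CPM in Mock and 157 and 163 CPM with DRIL18 (log2 fold change 0.91 ± 0.038 SE, adjusted p = 1.04e-17), while Tbx21, the T-bet gene, passed narrowly (0.12, adjusted p = 0.0276) and loses its call without any 1 of the 4 libraries. Tox2 had 3 Mock counts and 27 with DRIL18, a ratio of 9.05 with a 95% counting interval of 2.78 to 46.6, and it loses its call without Mock replicate 2 (adjusted p = 0.11), without DRIL18 replicate 1 (adjusted p = 0.104) and against NoEp (log2 fold change 1.54, adjusted p = 0.0739). Besides Eomes, the falls included Ahr (-0.86), Nfil3 (-0.69), Hopx (-0.42) and Id2 (-0.33). Among granule genes 5 of 23 rose and 8 fell, while 1 rose and 5 fell without Mock replicate 1, 2 rose without Mock replicate 2 or DRIL18 replicate 2, and 3 without DRIL18 replicate 1. Gzma, granzyme A, was at 333 and 327 CPM in Mock and 182 and 184 CPM with DRIL18 (log2 fold change -0.85 ± 0.035 SE, adjusted p = 7.35e-18), and Gzmc, granzyme C, at 12.4 and 10.9 CPM in Mock and 33.2 and 39.3 CPM with DRIL18 (log2 fold change 1.64 ± 0.094 SE, adjusted p = 1.67e-14). DRIL18 was lower in both libraries for Gzma and higher in both for Gzmc, which has close copies such as Gzmd. Nkg7, needed for granule release, was at 289.6 and 296 CPM in Mock and 226 and 224 CPM with DRIL18 (-0.38, adjusted p = 1.01e-09). Prf1, the perforin gene, was at 9.79 and 10.6 CPM in Mock and 13.2 and 13.2 CPM with DRIL18 (0.37, adjusted p = 0.00328) and missed the threshold when Mock replicate 1 was left out (0.32, adjusted p = 0.0679) or against NoEp (0.14, adjusted p = 0.276). Gzmb was at 1970.0 and 1983 CPM in Mock, 1701 and 1832 CPM with DRIL18 and 1549.5 and 1451 CPM in NoEp. Its fall (-0.16, adjusted p = 0.019) turned into a rise against NoEp (0.24, adjusted p = 0.000456). The fall is not called by DESeq2 (-0.17, adjusted p = 0.214) or with the mark bis as a covariate (-0.12, adjusted p = 0.145). Its call is also lost without Mock replicate 1 (-0.17), Mock replicate 2 (-0.15) or DRIL18 replicate 1 (-0.11).

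Natural killer cell markers summed to 672 and 668 CPM in Mock and 439.7 and 439.6 CPM with DRIL18. Of the 7 tested, 4 fell (Eomes, Gzma, Nkg7 and Txk), all of which activated CD8 T cells also express, and Tyrobp did not pass (-1.36, adjusted p = 0.109). Killer receptors had 4 of 15 lower, among them Klrd1, which encodes CD94, at 88.9 and 96.0 CPM in Mock and 64.0 and 66.02 CPM with DRIL18 (-0.51, adjusted p = 9.39e-10), and 1 higher, Klrk1, the NKG2D gene (0.41, adjusted p = 5.63e-07). Markers of gamma-delta T cells summed to 134 and 139 CPM in Mock and 113 and 119 CPM with DRIL18, with 4 of 8 lower, such as Trdc (-0.44, adjusted p = 2.26e-07), and 2 higher. The higher ones were Tcrg-C4 (0.31, adjusted p = 0.0153) and Maf (0.52, adjusted p = 0.00394), of which 0 pass without Mock replicate 1 and 1 when another of the 4 libraries is left out. CD4 and regulatory T cell markers had 4 of 12 higher and 3 lower, with 1 lower without either Mock library and 0 without DRIL18 replicate 1. With NoEp as the control their median turned from 0.25 to -0.11, with 2 higher and 5 lower. Foxp3 (-1.18, adjusted p = 0.0391) passed narrowly and is lost without any 1 of the 4 libraries. Whether shares of these cells differ was not tested. Red cell and platelet markers summed to at most 3.28 CPM.

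Many metabolic genes rose by small steps. Glycolysis and hypoxia genes had 24 of 31 higher and 0 lower, with a median of 0.31. Slc16a3, a lactate exporter, was at 46.9 and 53.0 CPM in Mock and 86.6 and 79.5 CPM with DRIL18 (log2 fold change 0.74 ± 0.088 SE, adjusted p = 1.19e-07), and the glycolytic enzyme gene Tpi1 at 342 and 349 CPM in Mock and 560.4 and 543 CPM with DRIL18 (log2 fold change 0.68 ± 0.048 SE, adjusted p = 2.27e-12). Pfkl, at 101 and 99.95 CPM in Mock and 159 and 151 CPM with DRIL18, had 0.62, adjusted p = 1.22e-10. Each was above Mock in both DRIL18 libraries. Genes of MYC and ribosome biogenesis had 22 of 33 higher and 3 lower, a median of 0.20, with Myc at 145 and 147 CPM in Mock and 177 and 192 CPM with DRIL18 (log2 fold change 0.34 ± 0.043 SE, adjusted p = 2.86e-07), the spermidine synthase gene Srm at 82.3 and 80.2 CPM in Mock and 125 and 116 CPM with DRIL18 (log2 fold change 0.57 ± 0.046 SE, adjusted p = 4.81e-11) and Npm1 at 1132 and 1128 CPM in Mock and 1532 and 1586 CPM with DRIL18 (0.46, adjusted p = 1.4e-10). The 3 that fell were the MYC relative Mycn (-1.46, adjusted p = 1.25e-08) and the MYC antagonists Mxd3 (-0.43) and Mxd4 (-0.40). Amino acid and ATF4 genes had 17 of 34 higher and 1 lower, with Slc7a3, a cationic amino acid transporter, at 0.509 and 0.684 CPM in Mock and 2.31 and 2.59 CPM with DRIL18 (2.04, adjusted p = 1.08e-07) and the alanine transaminase Gpt2 at 3.95 and 3.15 CPM with DRIL18 (1.15, adjusted p = 7.38e-05). The unfolded protein response had 12 of 21 higher and 0 lower, led by its sensor gene Ern1 (0.48, adjusted p = 2.7e-05) and including Hspa5, the ER chaperone BiP (0.23, adjusted p = 1.4e-05).

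In mitochondria, 17 of 35 respiratory chain subunit genes rose and 0 fell, with a median of 0.11 over the 35, and among the risers was Cycs, cytochrome c (0.49, adjusted p = 3.96e-09). Between 10 and 11 pass when any 1 of the 4 libraries is left out. Chaperone genes had 8 of 17 higher and 0 lower, among them the mitochondrial chaperonins Hspd1, at 363 and 363 CPM in Mock and 507 and 522 CPM with DRIL18 (0.50, adjusted p = 5.74e-11), and Hspe1 (0.45, adjusted p = 5.61e-08). Purine and pyrimidine genes had 13 of 29 higher and 2 lower, and 8 rose and 1 fell without Mock replicate 2. The lipid synthesis list had 7 of 33 higher and 6 lower (3 lower without Mock replicate 2), and with NoEp as the control it read 17 higher and 4 lower. Its called genes included the malic enzyme Me1, at 0.340 and 0.297 CPM in Mock and 1.33 and 1.47 CPM with DRIL18 (2.12, adjusted p = 2.04e-06), and the desaturase Scd1 (0.68, adjusted p = 2.44e-07). In the NRF2 list 9 of 28 rose and 3 fell (1 fell when any 1 of the 4 libraries was left out), including a rise of the heme oxygenase gene Hmox1 (0.81, adjusted p = 0.000207).

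Cell cycle genes were lower in part. Of 48 tested, 21 fell and 5 rose, with a median of -0.090, and 1 to 3 rose without either Mock library or DRIL18 replicate 2. Mki67, the proliferation marker Ki-67, was at 1597 and 1567 CPM in Mock and 1152 and 1106 CPM with DRIL18 (log2 fold change -0.49 ± 0.04 SE, adjusted p = 6.64e-11), and Cenpf, a centromere protein gene of late cycle, at 267 and 255 CPM in Mock and 199.7 and 186 CPM with DRIL18 (log2 fold change -0.44 ± 0.049 SE, adjusted p = 3.61e-08). The inhibitor gene Cdkn1a, which encodes p21, was at 63.7 and 59.6 CPM in Mock and 99.8 and 104.8 CPM with DRIL18 (log2 fold change 0.73 ± 0.066 SE, adjusted p = 4.31e-10), and another inhibitor, Cdkn2c, fell (-0.44, adjusted p = 1.65e-08). DRIL18 and Mock libraries did not overlap in these 4 genes. Replication genes such as Mcm2 (-0.10, adjusted p = 0.053) and Pcna (0.005, adjusted p = 0.946) did not pass. Against NoEp the list read 18 higher and 15 lower, with a median of 0.0079, so its direction depends on the control. In the survival list 12 of 27 rose and 3 fell. Pim2, a survival kinase, was at 98.4 and 107 CPM in Mock and 169 and 185 CPM with DRIL18 (log2 fold change 0.79 ± 0.048 SE, adjusted p = 7.43e-14), the inflammatory caspase gene Casp1 at 50.7 and 49.6 CPM in Mock and 79.4 and 77.7 CPM with DRIL18 (0.65, adjusted p = 1.93e-10), and Bcl2 fell (-0.40, adjusted p = 2.93e-09).

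To see where the response differs from that to the other single mRNA, IL12 was tested directly against DRIL18, a test that uses the same DRIL18 libraries. It gave 6235 changed genes (39.5%), 2987 higher and 3248 lower with IL12 (18.9% and 20.6%). MHC class II genes were higher with DRIL18 than with IL12: 11 of 12 passed in that direction and 0 in the other, with a median of -1.32 for IL12 minus DRIL18. Cd74 was at 19.0 and 17.8 CPM with IL12 (-2.12, adjusted p = 9.65e-23). B cell markers went the same way, with 6 of 14 lower and 1 higher with IL12 and a median of -0.47, and Ighm was at 453 and 421 CPM with IL12 (-1.04, adjusted p = 2.43e-20). Their part in the class II values was not tested. For antiviral genes 36 of 55 were higher with DRIL18 and 8 with IL12, and for class I genes 19 of 24 and 1. Relb (-1.10, adjusted p = 1.43e-14), Nfkbia (-1.33, adjusted p = 1.48e-19), Serpina3f (-4.03, adjusted p = 1.88e-21) and Asb2 (-3.10, adjusted p = 3.02e-23) were also higher with DRIL18. In the other direction stood cholesterol and lipid synthesis, with 31 of 33 genes higher with IL12 and 1 with DRIL18, and glycolysis, with 28 of 31 and 2. Ifng, at 209.8 and 189 CPM with IL12 (3.52, adjusted p = 5.64e-30), and Il18r1, at 814 and 841 CPM (4.38, adjusted p = 7.16e-34), were lower with DRIL18 than with IL12. Among GBP and IRG genes 13 of 19 were higher with DRIL18 and 5 with IL12, Gbp2 being one of the 5 (1.52, adjusted p = 2.86e-25).

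**Figure D4:**
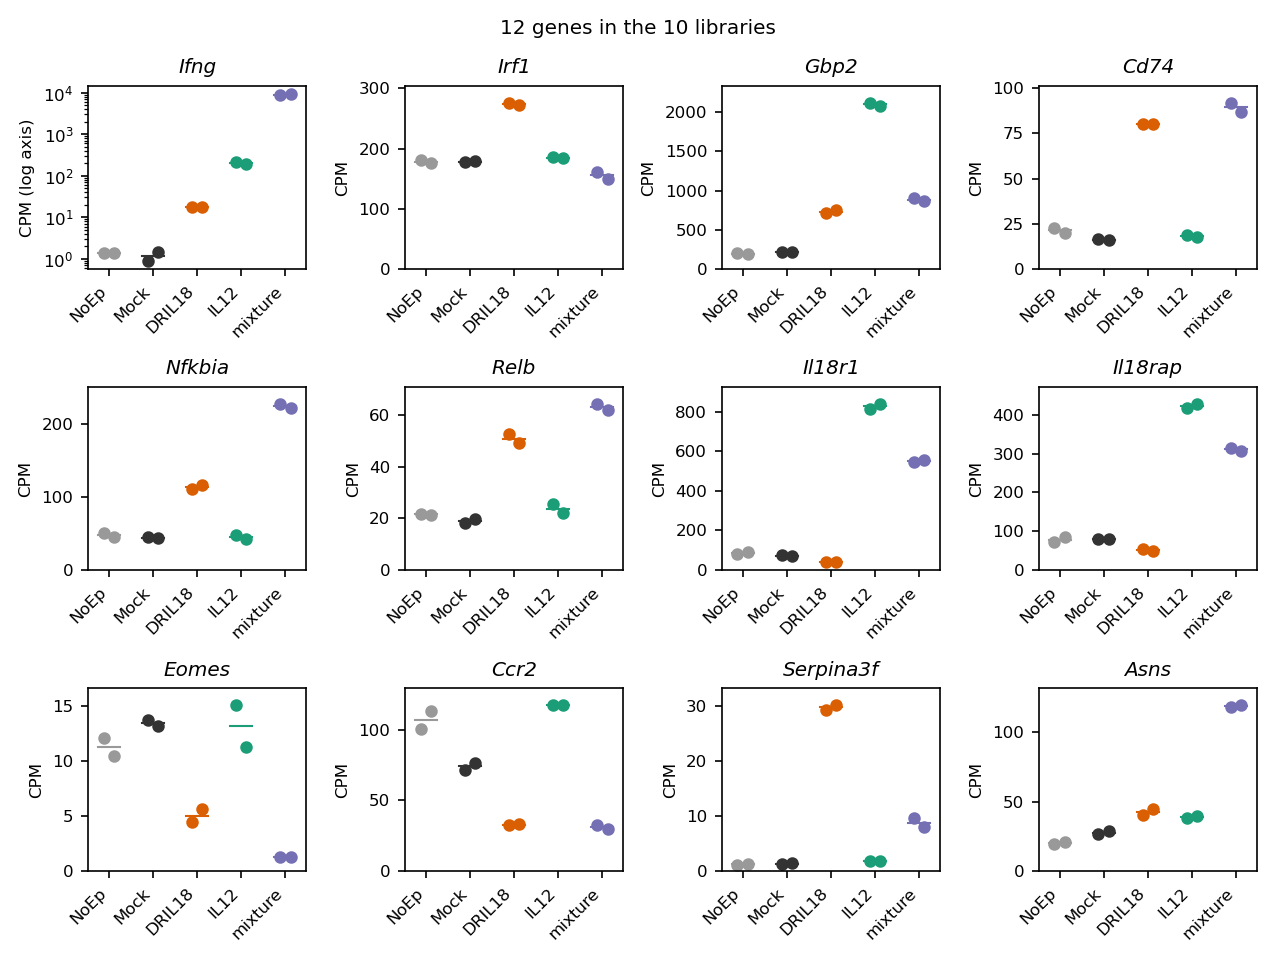
Points give the CPM of each of the 10 libraries and short lines the mean of the 2 libraries of a group, for 12 genes of the lists, with a log axis for Ifng only and the other axes starting at 0. Il18r1 is lowest with DRIL18 and highest with IL12.

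The same mRNA was also added to cells that received IL12 mRNA, and that comparison, mixture against IL12, shares no library with DRIL18 against Mock. It gave 8232 changed genes (52.2%). Of the 1917 genes that rose with DRIL18 alone, 1377 (71.8%) also rose there, beside 25.8% of all tested genes. These are 33.8% of the 4075 that rose there, beside 12.2% of all tested genes that rose with DRIL18 alone. Of the 1915 that fell, 1499 (78.3%) fell there too, beside 26.3% of all tested genes. They make up 36.1% of the 4157 that fell there, beside 12.1% of all tested genes that fell with DRIL18 alone. The effects of the mRNA with and without IL12 mRNA differed by a test of the difference for 4993 genes (31.6%), with 14.6% of tested genes having a positive and 17.1% a negative difference. Opposite calls were made for 199 genes that rose alone and fell on IL12, 10.4% of those that rose beside 26.3% of all tested genes falling there. For 98 genes that fell alone and rose on IL12 the share was 5.12%, beside 25.8% of all tested genes rising there.

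GBP and IRG genes were on the opposing side. All 19 rose with DRIL18 alone, 18 of the 19 fell when it was added to IL12 mRNA and 1, Gbp5, rose (0.20, adjusted p = 9.06e-05). The difference between the effects passed for all 19, with a median of -1.66. Gbp2 stood at 2121 and 2082 CPM with IL12 and 907 and 860.0 CPM in the mixture (-1.25, adjusted p = 3.04e-23). Iigp1 was at 188 and 192 CPM with IL12 and 83.8 and 78.2 CPM in the mixture (-1.23, adjusted p = 2.08e-21). Mixture libraries were lower than IL12 libraries in both genes. Antiviral genes had 30 of 55 lower and 9 higher there, and 32 lower and 1 higher in the test of the difference. MHC class I genes had 15 of 24 lower and 6 higher there, and 18 lower and 2 higher in that test. The IFN-γ axis had 7 of 10 lower and 3 higher, and 7 lower and 2 higher in that test. Respiratory chain genes had 31.4% lower and 22.9% higher, beside 26.3% and 25.8% of all tested genes. In the test of the difference, 15 of these 35 were lower and 0 higher. Of the interferon gamma receptor genes, Ifngr1 was lower in the mixture than with IL12 (-0.87, adjusted p = 2.86e-18). Ifngr2 was higher, at 1.44 and 1.32 CPM with IL12 and 3.68 and 4.54 CPM in the mixture (1.57, adjusted p = 4.79e-09). Both groups were below Mock for Ifngr2, with 495 and 474 raw counts in Mock, 44 and 42 with IL12 and 126 and 153 in the mixture. Ifng was at 209.8 and 189 CPM with IL12 and 8882 and 9109 CPM in the mixture (5.50, adjusted p = 5.54e-36).

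Several other groups rose or fell in both settings. NF-κB family genes had 21 of 30 higher and 4 lower in mixture against IL12, with Nfkbia going from 47.4 and 42.8 CPM to 227 and 221 CPM (2.31, adjusted p = 5.32e-26) and Relb from 25.4 and 22.2 CPM to 64.4 and 62.0 CPM (1.41, adjusted p = 1.05e-17). The effect of DRIL18 mRNA differed for Nfkbia (0.95, adjusted p = 5.89e-12) and not at the threshold for Relb (-0.017, adjusted p = 0.926). The MHC class II list had 6 of 12 higher there (50%, beside 25.8% of all tested genes) and 3 lower (25%, beside 26.3%). The share lower was thus near that of all tested genes. The lower ones were H2-DMa (-0.59, adjusted p = 5.53e-08), H2-Oa (-0.94, adjusted p = 1.79e-06) and H2-Ob (-0.53, adjusted p = 0.00396). Of this list, Cd74 (2.28, adjusted p = 1.16e-23), H2-Aa (1.39, adjusted p = 5.2e-12) and H2-Eb1 (1.53, adjusted p = 3.96e-12) rose in both settings, with differences of -0.018 (adjusted p = 0.917), -0.076 (0.778) and 0.095 (0.746). For the class II list the difference passed for 3 of 12 (25%), all lower, beside 17.1% lower over all tested genes. B cell markers had 7 of 14 higher and 0 lower in mixture against IL12, with a median of 0.53, and their part in the class II values was not tested. ATF4 genes had 29 of 34 higher and 1 lower on IL12, and the difference of effects passed upward for 29 of 34. For the unfolded protein response 18 of 21 were higher and 0 lower on IL12, and it passed upward for 19 of 21. Both IL-18 receptor chains fell again, Il18r1 from 814 and 841 CPM to 548 and 554 CPM (-0.59, adjusted p = 5.95e-14) and Il18rap from 419 and 429 CPM to 316 and 307 CPM (-0.45, adjusted p = 5.56e-10).

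**Figure D5:**
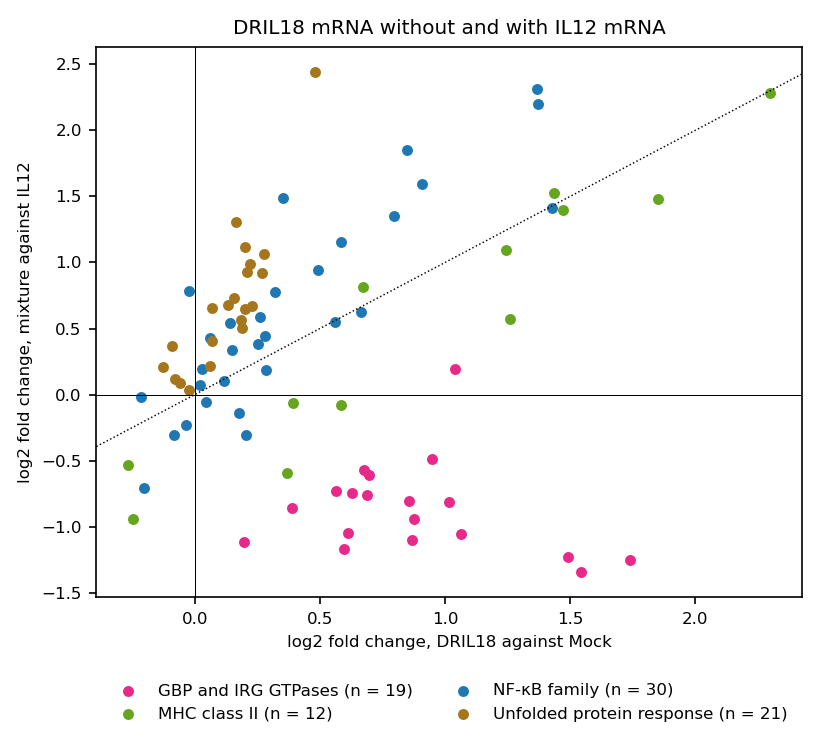
Each point is a gene, with the log2 fold change of DRIL18 against Mock on the x axis and of mixture against IL12 on the y axis, which use separate libraries. The dotted line marks equal effects. GBP and IRG genes (pink) lie right of 0 on the x axis and, except Gbp5, below 0 on the y axis, while NF-κB family genes (blue) lie mostly above 0 on both.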

How the data were processed

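Bulk RNA was sequenced from 10 libraries in 5 groups, of which 4 libraries are compared here. The authors deposited raw counts, whole numbers of reads per Ensembl gene, unscaled per the values themselves. The submitters' processing notes name STAR 2.7.9, featureCounts, edgeR, limma and the mm39 build, without their order. The labels name a stranded mRNA kit. Strand setting, annotation release and treatment of reads with several alignments are not stated there, so overlapping and antisense genes are uncertain. A deposited table of log2 values was not used. Columns were matched by group and replicate number, and 6 columns, among them DRIL18 replicate 2, carry the mark bis, whose meaning is not given. Symbols came from GENCODE M21 for 52083 identifiers.

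Counts were fitted with edgeR 4.0.16 in R 4.3.3: TMM scaling, filterByExpr by group, 5 group means over all 10 libraries (5 residual degrees of freedom), quasi-likelihood F test, Benjamini-Hochberg adjustment over all tested genes. Replicates of every group differed beyond sampling noise (chi-square per degree of freedom 2.62 to 4.94). Named were the 12 largest and 12 smallest log2 fold changes among called genes with separate libraries and at least 5 CPM on average in the higher group, up to 4 called members of each list, and 40 fixed genes. Other list members were named after their values were seen. The members and lists were chosen with earlier results of these data known, and no list was tested as a set. Alternatives used limma 3.58.1, DESeq2 1.42.0, other scalings, filters and controls, and left out each library. The fit was tested on simulated data. A few genes are not reported here, though counts over lists and over all genes include them.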

Additional observations from a re-analysis of the deposited data

Results flagged for a closer look

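Among the 12 genes that rose most and the 12 that fell most, the effect of DRIL18 mRNA was tested for a difference between cells with and without IL12 mRNA (edgeR, effect with minus effect without, adjusted over all tested genes). It differed for 15 of the 24, beside 31.6% of all tested genes. The 24 were chosen by their values in DRIL18 against Mock, and the test of the difference uses those libraries again. The count is therefore not independent of the choice.

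Serpina3f rose less with IL12 mRNA (difference -2.25, adjusted p = 5.25e-09) and so did Serpina3g (-1.58, adjusted p = 7.74e-10). AC151990.1 rose only without it at the threshold (-3.75, adjusted p = 4.07e-09), and AC132320.1 rose without it and fell with it (-4.68, adjusted p = 3.45e-14). Ifng (1.60, adjusted p = 3.57e-08) and Asb2 (2.99, adjusted p = 4.29e-18) rose more.

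Of the genes that fell, Lgals3 (-2.24, adjusted p = 1.87e-17), C030034L19Rik (-2.72, adjusted p = 1.49e-06), Eomes (-1.98, adjusted p = 5.83e-08), Aqp9 (-1.70, adjusted p = 4.51e-11), Fhl2 (-1.23, adjusted p = 4.89e-05), Lrrc32 (-1.17, adjusted p = 0.0119), Ccr2 (-0.73, adjusted p = 2.17e-08) and St3gal6 (-0.62, adjusted p = 0.00302) fell further with IL12 mRNA. Prag1 fell less (0.86, adjusted p = 0.000474).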

How the results depend on the processing

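Leaving out 1 library at a time gave 2525 to 4125 changed genes for DRIL18 against Mock, with the lowest value without Mock replicate 2, 7304 to 8237 for mixture against IL12, 4121 to 4976 for the difference of the effects and 4893 to 6235 for IL12 against DRIL18. Where this leaves a group with 1 library, that library is assumed to vary like the others. For DRIL18 against Mock, DESeq2 gave 3190 (3671 adjusted p-values were not given), limma-voom 3844, the 4 libraries alone 4516 and NoEp as the control 5548, 3293 of them shared in direction. The replicate block gave 3814, 8194, 4980 and 6210 for the 4 comparisons. Whether same-numbered replicates share more than a number is not given in the labels. The deviations of Mock and DRIL18 replicates correlate at -0.032 over 9756 genes, and those of the other pairs of groups at -0.065 to 0.127. With 2 libraries a group, these values cannot decide it. Under the replicate block no gene named here lost its call.

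Of 178 named genes that passed, 152 passed in all 19 alternatives and 26 did not in at least 1. Signs turned with NoEp as the control for Gzmb (0.24, adjusted p = 0.000456), Ccl5 (-0.29, adjusted p = 0.0147), Il7r (-0.33, adjusted p = 2.215e-08) and Pdcd1 (0.037, adjusted p = 0.806). Rel turned with the mark bis as a covariate (0.023, adjusted p = 0.866) and without Mock replicate 2, ranging from -0.050 to 0.0081 when 1 library was left out, and Lag3 without DRIL18 replicate 2, ranging from -0.0046 to 0.14. With NoEp as the control more genes fell on several lists: 3 in MHC class I, 2 in class II, 7 in survival and 8 of the IL-18 pathway, where 6 rose. More rose among respiratory chain (29) and nucleotide genes (21). The cause was not tested. At this depth genes with a few counts, such as Il13, Ifi44 and Tox2, rest on counting limits.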

Other observations

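Some genes on no list moved as clearly as those described and were picked out after their values were seen. Pou2f2, which encodes the octamer-binding factor OCT2, was at 56.7 and 62.1 CPM in Mock and 120.2 and 119 CPM with DRIL18 (log2 fold change 1.01 ± 0.052 SE, adjusted p = 1.28e-15). Dennd5a, a Rab regulator, was at 40.5 and 39.9 CPM in Mock and 129 and 136 CPM with DRIL18 (log2 fold change 1.72 ± 0.044 SE, adjusted p = 3.46e-23). Mir155hg, the host transcript of miR-155, was at 3.62 and 3.60 CPM in Mock and 9.90 and 9.28 CPM with DRIL18 (1.41, adjusted p = 1.25e-10). All 3 were also higher in the mixture than with IL12 (2.27, adjusted p = 8.02e-25; 3.37, adjusted p = 1.89e-32; 3.22, adjusted p = 1.56e-21). The imprinted gene Peg10 was at 0 in both Mock libraries and at 1.33 and 1.44 CPM with DRIL18.

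Large cytoskeletal genes stood among the falls. Ahnak, a scaffold protein gene, was at 652 and 668 CPM in Mock and 377 and 380.3 CPM with DRIL18 (log2 fold change -0.80 ± 0.059 SE, adjusted p = 5.18e-12), Macf1, a microtubule and actin crosslinker, at 535 and 577 CPM in Mock and 330.0 and 322 CPM with DRIL18 (log2 fold change -0.77 ± 0.057 SE, adjusted p = 6.51e-12), and Zyx, which encodes zyxin, at 243 and 242 CPM in Mock and 143 and 147 CPM with DRIL18 (log2 fold change -0.74 ± 0.043 SE, adjusted p = 2.99e-14). Zfp683, which encodes Hobit, a factor of resident T cells, went from 13.1 and 16.2 CPM to 6.35 and 8.69 CPM (-0.96, adjusted p = 3.53e-07). In each of these 4 genes both DRIL18 libraries were below both Mock libraries, and each also fell from IL12 to the mixture (-1.16, adjusted p = 2.01e-16; -0.75, adjusted p = 2.45e-12; -0.85, adjusted p = 3.28e-16; -2.28, adjusted p = 2.35e-13).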
